A study of Homo sapiens with 18 samples.

Results

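The cytosolic ribosomal protein genes were examined for changes in splicing in SHEP.tet21n cells, a human neuroblastoma line in which MYCN is carried as a transgene that doxycycline (Dox) switches off. Members were the protein-coding genes whose symbol starts with RPL or RPS and a digit, with RPSA, RPLP0, RPLP1 and RPLP2, and without the RPS6K kinases and the L-type paralogs. The rule gave 83 of 20046 protein-coding genes, of which 46 encode proteins of the large subunit, 33 encode proteins of the small subunit, 3 are readthrough loci and 1, RPS19BP1, encodes a partner of RPS19 and no ribosomal protein. Introns of 62 of these genes were listed, and none was listed for the other 21, among them RPL5, RPL4, RPS2 and RPS26. In all, 213 listed introns had both ends at annotated exon boundaries of a member, and 130 of them, in 47 genes, had a mean share from 0.01 to 0.99 and were tested, while 15 genes, RPS3 and RPL13A among them, had listed introns but none in that range. The remaining 83 introns fell below that range (58) or above it (25). The whole series held 233650 introns, of which 152722 were tested.

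Ribosomal proteins assemble with ribosomal RNA into the small and the large subunit of the cytosolic ribosome. Their genes are among the most strongly transcribed of a growing cell, have short 5′ UTRs that start with a pyrimidine run, and often carry small nucleolar RNAs in their introns. MYC proteins are known to drive ribosome production. Heterozygous loss of several ribosomal protein genes causes Diamond-Blackfan anaemia, a failure of red cell formation. SNRPD3 is the Sm protein D3, part of the ring around the U1, U2, U4 and U5 small nuclear RNAs, and is used by the spliceosome at almost every intron.

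The 6 groups of 3 libraries were compared. In the MYCN- groups MYCN was repressed with 2 µg/mL Dox, and in the MYCN+ groups it was expressed, with DMSO in place of Dox. Each state was combined with a control siRNA (SNRPD3+), SNRPD3 siRNA #1 or SNRPD3 siRNA #2 (SNRPD3-), and MYCN-/SNRPD3+ is called wildtype here, although these cells carry the transgene and received Dox and a control siRNA. All groups come from 1 engineered line, so MYCN repression and treatment with Dox rather than DMSO cannot be told apart. The measure is PSI, the share of the split reads of a cluster of introns with shared ends that fall on a given intron, written here in percent of the cluster. PSI holds no RNA level, so the degree of MYCN repression or SNRPD3 knockdown could not be read from it, and a share that moves in all cells cannot be told apart from a change in the mix of cells. Of 8 mesenchymal neuroblastoma markers 7 had a listed intron, and of 8 adrenergic markers 3 did, with none for PHOX2A, DBH or TH. Replicates of a group correlated at 0.847 to 0.871 over all introns, and the files carry no reads, so the depth behind a value is unknown.

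The ribosomal protein introns had a smaller spread in PSI points than all tested introns, in a comparison not matched by mean PSI. The median SD of the members within a group was 1.38 percentage points, against 3.11 points over all tested introns. The mean absolute distance of the members from the wildtype libraries was 2.28 to 3.96 points per library, against 5.26 to 6.38 points over all tested introns. All 130 tested introns began with GT and ended with AG, as did 98.9% of the 103240 annotated introns tested in all genes. The 74 introns of the canonical transcripts had a median length of 675.5 bases, against 2425 bases for all annotated tested introns. Their 9-letter donor context matched CAGGTAAGT at 6.351 positions on average, against 6.355 for all annotated tested introns (the same strand only, exon bases first). Introns outside the annotation took 1.92 to 3.61% of the summed PSI at these genes' splice sites, against 11.05 to 11.73% over all introns. The 3 MYCN+ groups had means of 2.87, 3.13 and 3.14% and the 3 MYCN- groups 2.23, 2.54 and 2.67%, with overlapping libraries.

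The clearest change was in RPS24, a small-subunit protein needed for the maturation of 18S ribosomal RNA and a Diamond-Blackfan anaemia gene. Its coding sequence ends at exon 5, a microexon of 22 bases at chr10:78040204-78040225 (hg38, plus strand). The sequences of this event are shown because they give both the small exon and the ends of the reading frame that its use decides. In the first line exon 5 is in capitals, in the next lines the stop codon is in capitals, and in the last 4 lines the bases at the splice sites (GT or AG) are in capitals. The joined lines take 9 bases of exon 4 (chr10:78037296-78037304) and the start of the next exon (chr10:78040204-78040215 or chr10:78040615-78040632).
Exon 5, chr10:78040196-78040225: tgattcagTGAGCTGGAGATTGGATCACAG
Exon 4 joined to exon 5: ggcaaaaagTGAgctggagat
Exon 4 joined to exon 6: ggcaaaaagccgaaggagTAAaggtgc
Donor of exon 4, chr10:78037296-78037313: ggcaaaaagGTatagttc
Donor of exon 5, chr10:78040217-78040234: ggatcacagGTataattc
Acceptor of exon 5, chr10:78040186-78040209: tccccgccactgattcAGtgagct
Acceptor of exon 6, chr10:78040597-78040620: ctttctcttgattcacAGccgaag
With exon 5 included, the stop codon is its first codon and 0 codons follow exon 4. With exon 5 skipped, 3 more codons from exon 6 are read before the stop codon. The cluster holds 3 introns, which join exon 4 to exon 5 (2899 bases), exon 5 to exon 6 (389 bases) and exon 4 to exon 6 (3310 bases).

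Exon 5 of RPS24 was skipped more often with MYCN expressed than with MYCN repressed. The PSI of the skipping intron, chr10:78037304-78040615, was 40.6, 37.1 and 35.5% in the wildtype libraries, 44.7, 35.7 and 42.0% with siRNA #1 and 42.3, 34.5 and 38.8% with siRNA #2 among MYCN- cells. Among MYCN+ cells it was 58.9, 56.5 and 62.7% with control siRNA, 61.3, 59.4 and 68.3% with siRNA #1 and 61.1, 58.7 and 66.0% with siRNA #2. All 9 MYCN+ libraries lay above all 9 MYCN- libraries. The means were 61.4% ± 3.75 and 39.0% ± 3.57 (SD, n = 9 each), a difference of 22.4 points. In the limma fit of all 6 groups the MYCN main effect was 1.30 log2 odds (SE 0.12, 95% interval 1.05 to 1.55, adjusted p = 0.000153). The intron from exon 4 to exon 5 fell from 34.1% ± 1.96 to 21.5% ± 2.12 (adjusted p = 0.000381, limma), and the intron from exon 5 to exon 6 fell from 26.9% ± 1.62 to 17.1% ± 1.64 (adjusted p = 0.000487, limma), again with no overlap of the libraries. As the 3 values of a cluster sum to 100%, these are 1 change and not 3. Counted against the mean of its flanking introns, the skipping intron took 76.1% with MYCN expressed and 56.0% with MYCN repressed, and from 51.3% upward in every library. On such a share, 19 of 24 skipping introns of ribosomal protein genes were higher in the mean of the MYCN+ groups. Of the 40444 such introns of all genes, 67.0% were higher, counts that have no test.

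**Figure D1:**
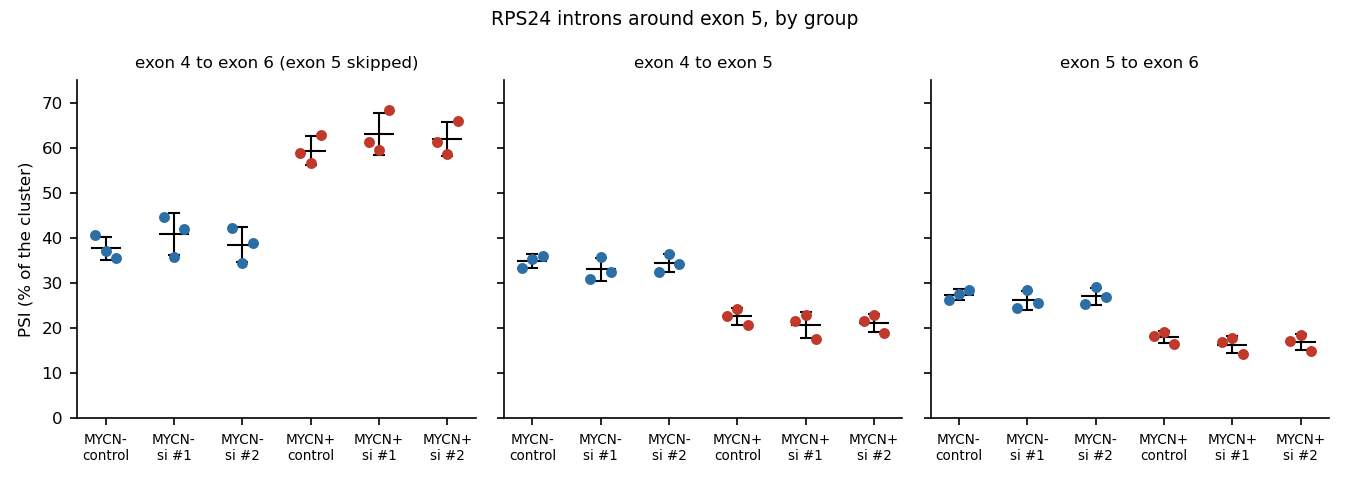
PSI (percent of the cluster) of the 3 RPS24 introns around exon 5, with 1 point per library, 3 libraries per group, and black bars for the mean ± SD. Blue points are MYCN- and red points MYCN+ libraries, and in each panel the 2 colours do not overlap, with skipping at 34.5 to 44.7% without and 56.5 to 68.3% with MYCN.

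The RPS24 shift was of similar size at each level of SNRPD3. MYCN raised skipping by 1.25 log2 odds (SE 0.20) with control siRNA, by 1.29 (SE 0.20) with siRNA #1 and by 1.36 (SE 0.20) with siRNA #2. The comparisons contrast different libraries, but they share 1 estimate of the spread from the fit of all 6 groups. Their adjusted p-values in limma were 0.0531, 0.0460 and 0.0388. These sit near the threshold. The first passed it without MYCN+/SNRPD3- siRNA #1 replicate 3 or without MYCN-/SNRPD3- siRNA #1 replicate 2 (lowest adjusted p = 0.0416). The second lost it in 16 of 18 fits that left out 1 library (highest adjusted p = 0.151), and the third in 11 of 18 (highest adjusted p = 0.133). Against wildtype, MYCN with siRNA #1 raised skipping by 1.47 log2 odds (SE 0.20, adjusted p = 0.0139) and MYCN with siRNA #2 by 1.40 (SE 0.20, adjusted p = 0.0226). The first of these calls was lost without wildtype replicate 2 or 3 (highest adjusted p = 0.0621), and the second was lost without wildtype replicate 2 or 3 or MYCN+/SNRPD3- siRNA #2 replicate 1 or 3 (highest adjusted p = 0.0957). The main effect over all groups was called in all 18 such fits (adjusted p from 0.000273 to 0.000654).

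Knockdown of SNRPD3 did not shift RPS24 past the threshold. The main effect of knockdown was 0.15 log2 odds (SE 0.12, 95% interval -0.12 to 0.42, adjusted p = 0.871), and the interaction of knockdown and MYCN was 0.07 (SE 0.25, 95% interval -0.46 to 0.60, adjusted p = 1). The 4 single comparisons of an siRNA with its control ranged from 0.05 to 0.22 log2 odds, all with an SE of 0.20.

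Over the whole gene set, 6 of 130 introns in 4 genes passed the threshold for the MYCN main effect, 4 higher and 2 lower, when 1.23% of all tested introns did. An unadjusted p under 0.05 was reached by 12 members (9.23%), against 11.7% of all tested introns. Without RPS24, 3 introns remained, in RPLP2, RPL17 and RPS15A. The median absolute difference of the members was 0.561 points, against 1.21 points over all tested introns, and 6.15% of the members moved by 5 points or more, against 14.98% of all. Large-subunit genes held 2 of the calls among 76 introns, and small-subunit genes 4 among 51. The libraries of the 2 MYCN states did not overlap for 5 of the 130 member introns (3 of RPS24, 1 of RPLP2, 1 of RPL17), when 0.353% of all tested introns did so.

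**Figure D2:**
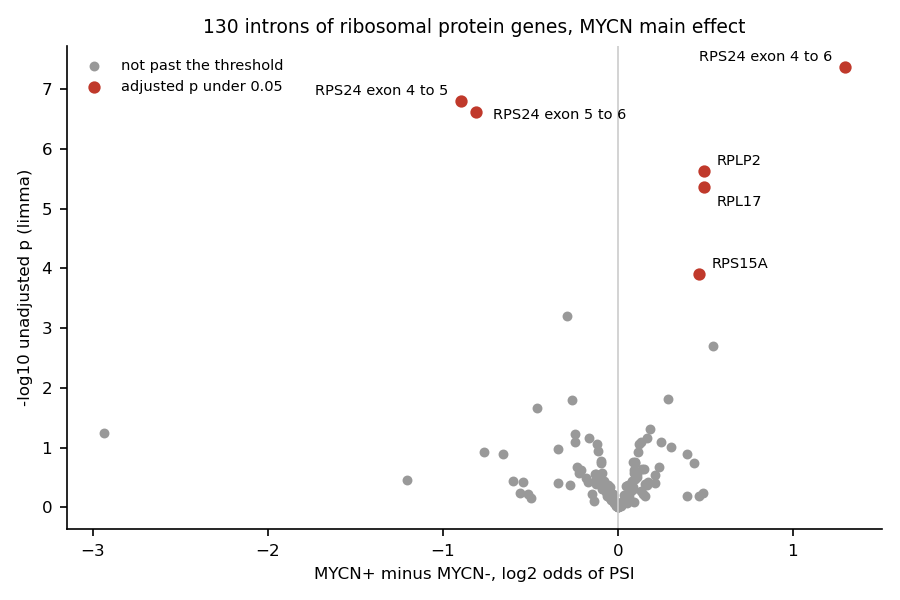
MYCN main effect (x axis, log2 odds of PSI, mean of the MYCN+ groups minus mean of the MYCN- groups) against -log10 of the unadjusted limma p (y axis) for the 130 ribosomal protein introns. The 6 red points passed an adjusted p of 0.05, and the 3 RPS24 introns have the smallest p-values.

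RPLP2, which with RPLP1 forms the acidic arms of the ribosomal P stalk that recruits elongation factors, skipped exon 2 more often with MYCN expressed. That direction was also the one of 67.0% of the skipping introns of all genes. Exon 2 is 124 bases long (chr11:810234-810357, plus strand) and holds the start codon at its base 2, so the intron that leaves it out, chr11:810039-811597, spans the start of the coding region. It is no annotated intron, though both of its ends are annotated. The first line below has the start codon in capitals, and the other lines have the splice site bases in capitals.
Acceptor of exon 2 with the start codon, chr11:810216-810241: cctctccgcccgcctcaggATGcgct
Donor of exon 1, chr11:810031-810048: cgccgccgcGTgagtgtg
Acceptor of exon 3, chr11:811579-811602: tgtgattgtctgcttcAGgttatc
The skipping intron was a small part of its cluster in every library. Its PSI was 1.67, 1.59 and 1.495% in wildtype, 1.65, 1.61 and 1.53% with siRNA #1 and 1.71, 1.57 and 1.51% with siRNA #2 in MYCN- cells. In MYCN+ cells it was 2.20, 2.41 and 2.59% with control siRNA, 2.51, 2.45 and 2.93% with siRNA #1 and 2.56, 2.83 and 3.08% with siRNA #2. The 2 states did not overlap (2.62% ± 0.28 against 1.59% ± 0.07, SD, n = 9 each), and the main effect was 0.49 log2 odds (SE 0.06, adjusted p = 0.00191, limma). The call was lost when PSI itself was fitted without transformation (adjusted p = 0.123, limma). The other introns of this cluster, exon 1 to exon 2 and exon 2 to exon 3, ranged from 3.42 to 17.2% and from 81.3 to 95.05% between libraries, and neither passed the threshold for MYCN (adjusted p = 0.835 and 0.927, limma). Their means were far apart, at 10.05 and 87.8%, although both flank the same exon, and the cause was not tested. Counted against the mean of its flanking introns, the skipping intron, at a mean PSI of 2.11%, took 4.12%. That share depends on which flank it is set against.

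RPL17 and RPS15A were called in clusters that also hold introns of a neighbouring gene, so their PSI is in part a share between genes. RPL17, a large-subunit protein at the peptide exit tunnel, was higher at its last intron (chr18:49488566-49489359, minus strand, exon 6 to exon 7, host of SNORD58C). The PSI was 97.49 to 97.97% in the 9 MYCN- libraries and 98.39 to 98.79% in the 9 MYCN+ libraries, with means of 97.7% ± 0.16 and 98.6% ± 0.15 (SD). The 2 states did not overlap, and the main effect was 0.49 log2 odds (SE 0.07, adjusted p = 0.00278, limma). This call too was lost with PSI itself (adjusted p = 0.170, limma). The cluster also holds introns of C18orf32, the gene it can be read through into, whose 2 listed introns went from 0.509 to 0.237% and from 1.24 to 0.711%. Only 1 intron of RPL17 itself is in that cluster, so a share within the gene could not be formed.

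The cluster of RPS15A, a small-subunit protein, is shared with ARL6IP1, but here a share within the gene could be formed. The first intron of RPS15A lies in the 5′ UTR, and the canonical donor of exon 1 (chr16:18790244, minus strand) competes with a donor 66 bases upstream. Both are shown with the GT in capitals.
Canonical donor, chr16:18790235-18790252: caatctaagGTtcggtct
Upstream donor, chr16:18790301-18790318: tccgcgccgGTgagtagc
The intron from the canonical donor, chr16:18789118-18790244, had a PSI of 16.2, 19.2 and 14.8% in wildtype, 17.9, 17.5 and 14.8% with siRNA #1 and 17.9, 20.9 and 17.1% with siRNA #2 in MYCN- cells. In MYCN+ cells it was 21.6, 21.9 and 19.4% with control siRNA, 22.6, 23.9 and 24.4% with siRNA #1 and 23.3, 21.97 and 24.99% with siRNA #2. The 2 states overlapped between 19.4 and 20.9%, and the main effect was 0.46 log2 odds (SE 0.09, adjusted p = 0.0199, limma). In the same cluster an intron of ARL6IP1, which encodes a protein that shapes the endoplasmic reticulum, took 41.1% ± 8.68 in MYCN- and 26.3% ± 4.13 in MYCN+ libraries (SD, n = 9 each). When the RPS15A introns were set against each other alone, the canonical donor had 30.1% ± 1.86 in MYCN- and 31.2% ± 2.19 in MYCN+ libraries, a difference of 0.07 log2 odds (SE 0.08, 95% interval -0.09 to 0.24, adjusted p = 0.819, limma). The choice between the RPS15A donors did not pass the threshold on this scale. The share within the gene was added after the PSI values were seen.

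**Figure D3:**
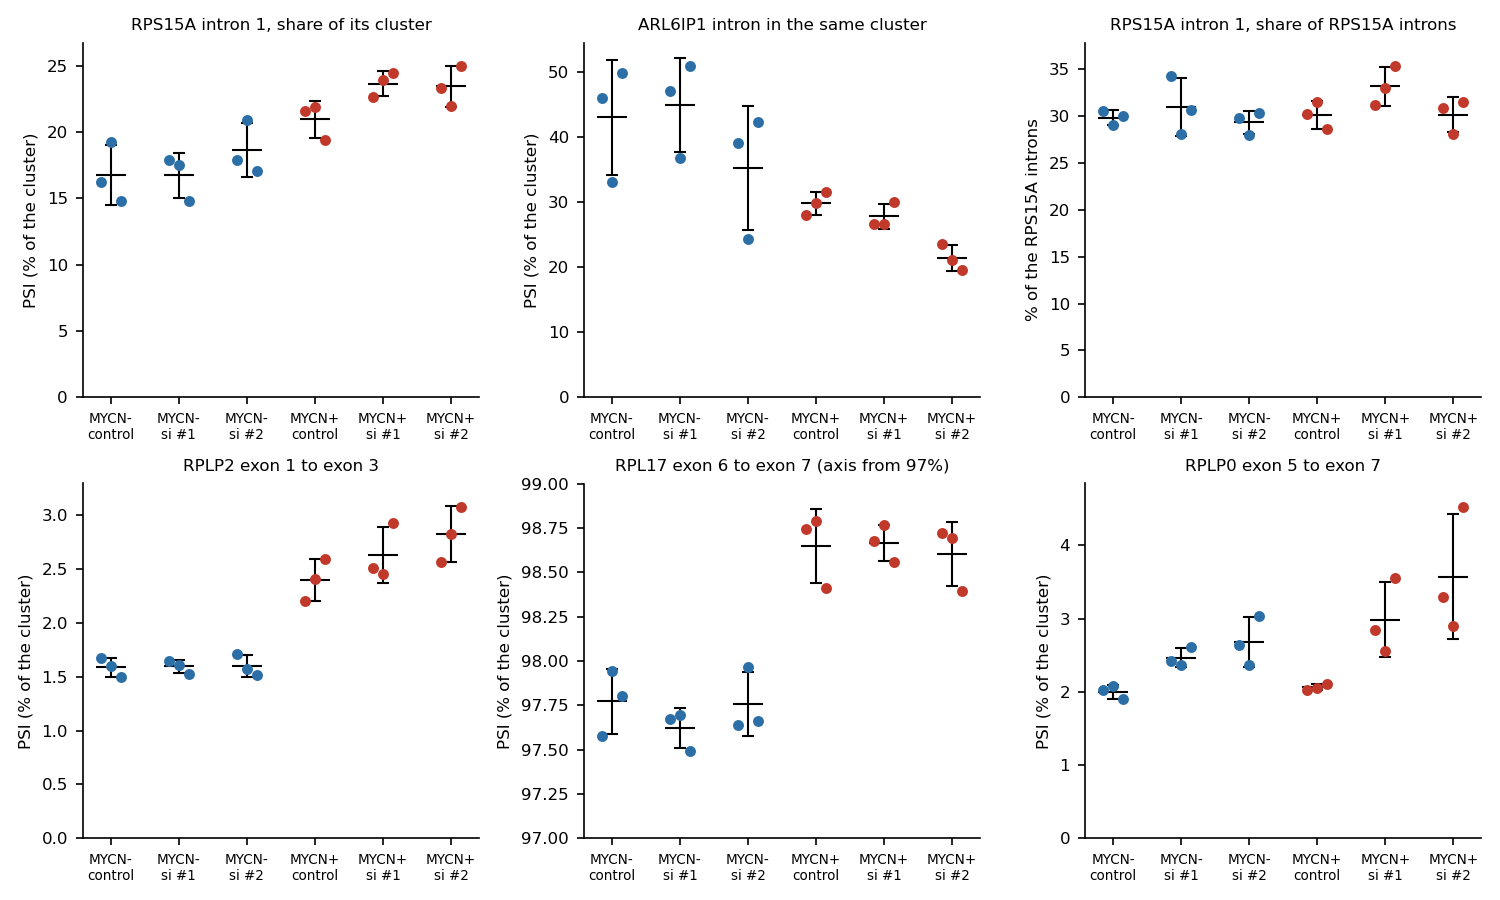
PSI (percent of the cluster) of RPS15A intron 1, of the ARL6IP1 intron in its cluster, of RPS15A intron 1 among RPS15A introns alone, and of introns of RPLP2, RPL17 and RPLP0, with 1 point per library (blue MYCN-, red MYCN+) and the mean ± SD of 3. The RPL17 axis starts at 97%, and the RPS15A share within the gene is near 30% in all groups.

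Just outside the threshold lay an RPL17 donor in the 5′ UTR (chr18:49491584-49491736), at 1.66% ± 0.18 with and 2.23% ± 0.20 without MYCN (SD, n = 9 each, adjusted p = 0.0504, limma). The next gene in the order of p did not pass it either. RPS19BP1, a regulator of the deacetylase SIRT1, had an alternative donor at 1.52% ± 0.37 with MYCN expressed and 1.075% ± 0.28 with MYCN repressed (SD, n = 9 each, adjusted p = 0.254, limma). In the comparison of MYCN alone, with control siRNA only, 0 of 130 member introns passed in limma, when 0.0543% of all tested introns were called. An unadjusted p under 0.05 was reached by 7 members (5.38%), against 6.19% of all tested introns. For MYCN with siRNA #1 against wildtype 3 passed (background 0.278%) and for MYCN with siRNA #2 against wildtype 3 passed (background 0.11%), all of them introns of RPS24. Within the siRNA #1 groups and within the siRNA #2 groups, comparisons added after the data were seen, MYCN called 1 member intron each, the RPS24 skipping intron (background 0.0491% and 0.0393%).

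Knockdown of SNRPD3 called no ribosomal protein intron. In the main effect of knockdown 0 of 130 passed in limma, when 0.0242% of all tested introns were called. An unadjusted p under 0.05 was reached by 6 members (4.62%), against 7.80% of all tested introns. Of the 4 single siRNA comparisons, 0 members passed in each in limma, and 1, 3, 5 and 10 had an unadjusted p under 0.05 for siRNA #1 and #2 with MYCN repressed and siRNA #1 and #2 with MYCN expressed. Of all tested introns, 0.0105, 0.0151, 0.0144 and 0.0164% were called in the same order. An unadjusted p under 0.05 was reached by 0.769, 2.31, 3.85 and 7.69% of the members, against 4.54, 4.69, 7.25 and 6.17% of all tested introns. The interaction called 0 members (background 0.0177%), with 1 (0.769%) at an unadjusted p under 0.05, against 3.98% of all tested introns. Median absolute differences for knockdown were 0.372 points for the members and 1.10 points for all tested introns.

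The smallest p for knockdown belonged to RPLP0, the protein that anchors the P stalk to the large subunit. The intron that skips its exon 6 of 186 bases (chr12:120197462-120198854, minus strand) is annotated and lies within the coding region. Its PSI was 2.02, 2.08 and 1.90% in wildtype, 2.42, 2.37 and 2.61% with siRNA #1 and 2.64, 2.36 and 3.04% with siRNA #2 when MYCN was repressed. With MYCN expressed it was 2.03, 2.05 and 2.11% with control siRNA, 2.85, 2.56 and 3.55% with siRNA #1 and 3.29, 2.90 and 4.53% with siRNA #2. All 12 knockdown libraries lay above all 6 controls, which held for 2 of the 130 member introns and 0.0452% of all tested introns, or 0.0642% of all when introns with every knockdown library below the controls are counted too. The main effect was 0.37 log2 odds (SE 0.09, 95% interval 0.18 to 0.56, unadjusted p = 0.00115, adjusted p = 0.256, limma). The other such intron was one of RPL17 (chr18:49491833-49492458), which joins exon 1 to an additional exon in the 5′ UTR, at 4.14% ± 0.40 in the 12 knockdown libraries and 3.26% ± 0.26 in the 6 controls (SD, adjusted p = 0.287, limma).

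RPS9 and RPS7 also had a small unadjusted p for knockdown, and neither passed the threshold. RPS9 skipping of exon 4 was at 47.1% ± 5.36 and 41.6% ± 1.13 (SD, adjusted p = 0.487, limma). The first intron of RPS7, which can bind MDM2, was at 98.7% ± 0.21 and 98.5% ± 0.19 (SD, adjusted p = 0.618, limma). Among the smallest p-values for the interaction were those of introns of RPL37, RPS9, RPS4X and RPLP0, each with an adjusted p of 1 in limma. The estimates were 1.22 log2 odds (SE 0.51) for RPL37, 0.83 (SE 0.52) for RPS9, -2.71 (SE 2.05) for RPS4X and 0.23 (SE 0.18) for RPLP0.

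Exons of ribosomal protein genes that are almost always included gave a second view of knockdown, as the share of the skipping intron over itself and the mean of its flanking introns. This measure was added after the data were seen and has no test. Of 16 skipping introns with a mean share under 10%, 13 (81.25%) were higher in the mean of the knockdown groups than in that of the controls, and among the 25690 such introns of all genes 73.6% were higher, so the ribosomal protein genes were near the general share. Their median ratio of knockdown to control was 1.22, against 1.33 over all. RPL17 exon 3 (41 bases) had a mean of 0.914% with knockdown and 0.439% in controls, and a 23-base exon of RPL41 had 0.656% and 0.267%. Both were highest in replicate 3 of MYCN+/SNRPD3- siRNA #1 and of MYCN+/SNRPD3- siRNA #2, at 1.93 and 1.99% for RPL17 and 2.06 and 1.55% for RPL41. These 2 libraries also stood apart over all genes, with a median skipping share of 5.51 and 5.07% against 2.48 to 3.87% in the other libraries, and the part of this in the result was not tested. Without them, an alternative added after the data were seen, the knockdown mean was 0.720% for RPL17 and 0.446% for RPL41, and 12 of the 16 member introns and 68.2% of those of all genes were higher with knockdown, with median ratios of 1.16 and 1.23. Knockdown exceeded control by 0.702 points with MYCN expressed and 0.248 points with MYCN repressed for RPL17, and by 0.679 and 0.0998 points for RPL41, differences between states that were not tested. RPL3 exon 8 (96 bases), at 0.513 and 0.565%, RPL10 exon 6 (163 bases), at 1.64 and 1.76%, and an exon of RPS21, at 0.725 and 0.770%, were the 3 with a lower mean over all libraries. The control and knockdown libraries overlapped for 15 of the 16.

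**Figure D4:**
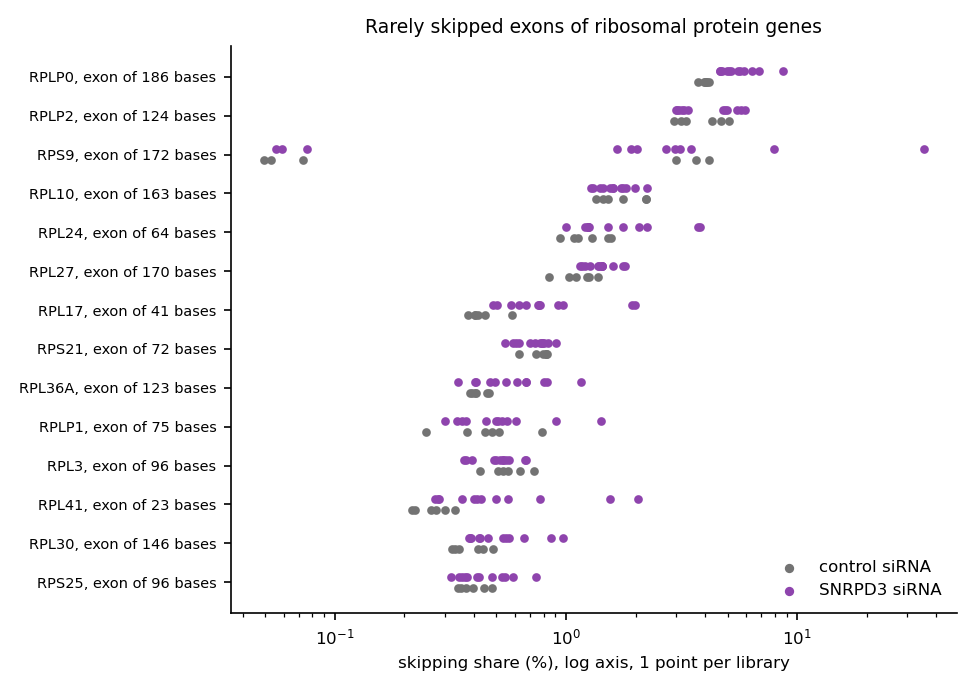
Skipping share (percent, log axis) of 14 of the 16 rarely skipped exons of ribosomal protein genes (the others are not shown), with 1 point per library for 6 control siRNA (grey) and 12 SNRPD3 siRNA (purple) libraries. RPLP0 exon 6 is the row in which the purple points lie above all grey points, and the other rows shown overlap.

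For many members a PSI near 50% is set by how clusters are built. Where a constant exon has a rare skipping intron, its 2 flanking introns fall into 1 cluster and share nearly all of it. RPL10 (49.9% and 49.3% for the introns on either side of exon 6), RPL3 (51.8% and 48.0% around exon 8), RPL27 (51.4% and 47.9% around exon 3), RPL30 (52.8% and 45.6% around exon 3), RPLP1 (54.0% and 45.7% around exon 2) and RPL17 (50.3% and 49.0% around exon 3) were of this kind. Such values state no alternative use. RPS4X (54.1%, range 0.778 to 98.4%) was near 50% as the mean of libraries that lay far apart. RPL10A and RPL12 had no listed intron, and RPS3 had none in the tested range.

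Choices between alternative splice sites were most frequent in first introns within the 5′ UTR. Of the 44 tested introns that used a donor or an acceptor other than that of the canonical transcript, 23 in 15 genes had a mean PSI of at least 5%, 17 by their donor and 6 by their acceptor. In the 5′ UTR, 21 such donors were tested in 14 genes, with a median PSI of 9.59%, and 13 in 10 genes had at least 5%. RPL6, a large-subunit protein, split its first intron between 2 donors, at 45.9% for the canonical one and 48.0% for one 176 bases downstream. The downstream donor took 22.8% in RPL35A (78 bases away), 19.4% in RPL34 (112 bases), 16.2 and 10.5% in RPL15 (66 and 122 bases), and an upstream one took 11.2% in RPL38 (35 bases). For RPS18, 88.4% used an acceptor 41 bases upstream of the canonical one, and for RPL14, 96.2% used a donor 111 bases upstream, so the canonical transcript of the annotation was the minor form there. The RPS18 cluster also holds an intron of HCG25, and among RPS18 introns alone the share was 90.6%. The RPL6 donors are shown as the most even pair, and 3 tandem sites as the closest, with each GT or AG in capitals.
RPL6 canonical donor, chr12:112409578-112409595: tcttgcaagGTaagaatc
RPL6 downstream donor, chr12:112409402-112409419: acaaagaggGTgaggtag
RPL11 tandem acceptor, chr1:23692591-23692617: tgctcttccctgttgcAGcAGgatcaa
RPS15 tandem acceptor, chr19:1438789-1438815: cgatccgcgcccgcacAGgcAGaagta
RPS9 tandem donor, chr19:54200880-54200904: tttgcttagGTgagGTgcggtggtg
The second AG of RPL11, which with RPL5 and 5S RNA binds MDM2, took 8.52% (range 7.44 to 9.63%), and that of RPS15 took 3.78% (range 2.70 to 4.39%). The alternative sites of RPL6, RPL34, RPL35A, RPL15, RPL38, RPL11 and RPS15 did not pass the threshold for MYCN or for knockdown in limma, with adjusted p-values of 0.664 or more for MYCN and 0.795 or more for knockdown.

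**Figure D5:**
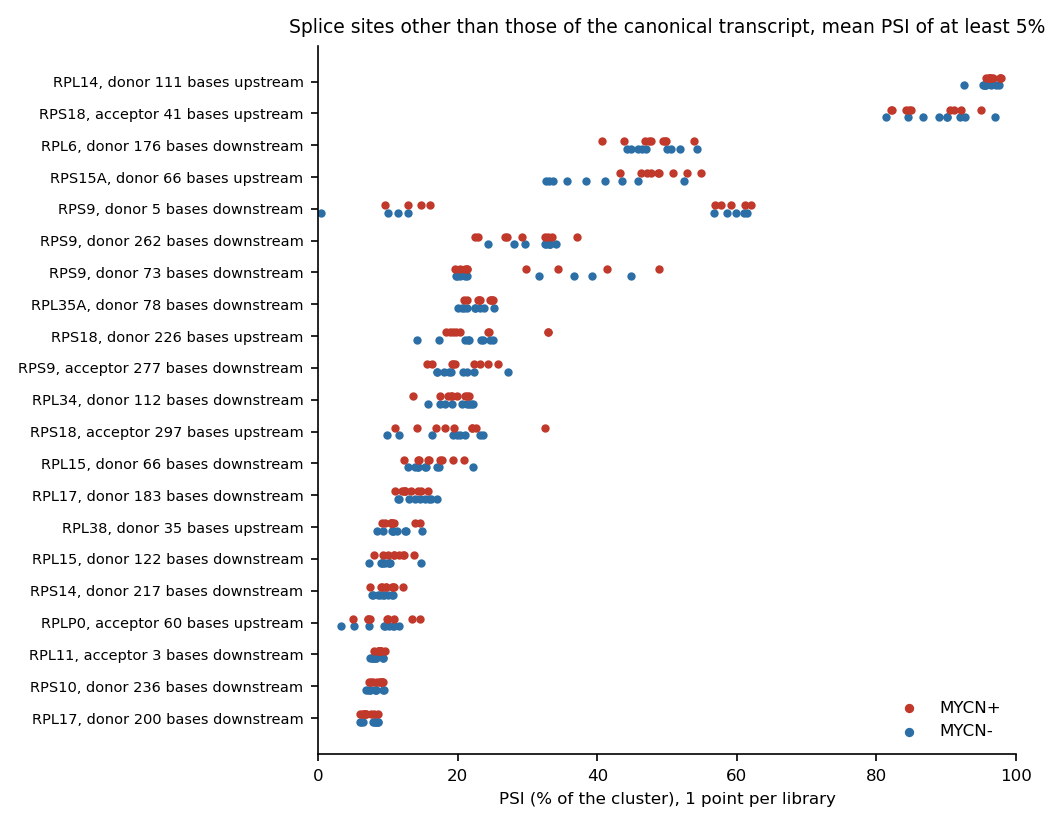
PSI (percent of the cluster, x axis) in each of the 18 libraries for 21 of the 23 introns of ribosomal protein genes that use a donor or acceptor other than the canonical one and have a mean PSI of at least 5% (the others are not shown). Red and blue points (MYCN+ and MYCN-) overlap in all rows shown, among which the RPS9 donor 5 bases downstream has the widest range.

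The gene groups were counted against 1.23% of all tested introns called for the MYCN main effect. Of the Diamond-Blackfan anaemia genes, 27 introns of 11 genes were tested, and the 3 called for MYCN (11.1%) were those of RPS24. As these make up 1 cluster, they are 1 change in 1 of the 11 genes. Of the P stalk, 1 of 11 introns was called (RPLP2, 9.09%), and of the 4 introns of RPL11 and RPS7, the MDM2-binding members with tested introns, 0 were called in limma and 0 had an unadjusted p under 0.05 for MYCN. Genes with a small nucleolar RNA in an intron held 31 tested introns in 11 genes, of which 2 were called (RPL17 and RPLP2, 6.45%). Of the 12 introns that themselves hold one, 1 was called (RPL17, 8.33%). No member of these groups was called for knockdown in limma, and 3 introns of the anaemia genes, 2 of the MDM2-binding genes, 1 of the P stalk and 1 of the small nucleolar RNA hosts had an unadjusted p under 0.05 there, when 7.80% of all tested introns did. The 2 of the MDM2-binding genes are the introns of RPS7, whose shares mirror each other, so they are 1 change. They are counted among the anaemia genes too.

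Among genes that make ribosomes rather than form them, the MYCN main effect called 13 of 590 introns in 8 of 88 ribosome assembly factors (2.2% of introns, 7 higher and 6 lower), when 1.23% of all tested introns were called. NOP56, a core protein of box C/D small nucleolar ribonucleoproteins, had an intron at 22.4% ± 1.22 with and 16.5% ± 1.30 without MYCN (adjusted p = 0.00442, limma), and its partner NOP58 had one at 10.6% ± 0.97 and 7.82% ± 0.77 (adjusted p = 0.0186, limma; SD, n = 9 each). LAS1L, part of the complex that cuts the second internal spacer of pre-ribosomal RNA, had one at 62.2% ± 2.91 and 54.4% ± 2.87 (adjusted p = 0.0202, limma). The others called were NOC2L, FTSJ3, NOP53, NOP16 and RIOK1. In NOC2L, FTSJ3, NOP56 and NOP58 the calls were a pair of introns with a shared end that moved in opposite directions. The count of introns thus holds each of these changes more than once. Of the paralogs that the rule leaves out, 2 of 19 introns in 6 genes were called against the same background, both in RPL22L1. There the minor of 2 introns with a shared end (chr3:170868201-170868298) rose from 4.42% ± 0.36 to 5.95% ± 0.52 (adjusted p = 0.0192, limma). The major one fell from 95.6% to 94.0%, the mirror of this, so these are 1 change and not 2. Knockdown called 0 introns of either list in limma, with 42 of 590 and 2 of 19 at an unadjusted p under 0.05, when 7.80% of all tested introns were.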

How the data were processed

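RNA from 18 libraries of SHEP.tet21n cells, 3 in each of 6 groups, was sequenced. The authors aligned reads to hg38 with STAR (2.5.0a in the submitters' processing notes, which also list SAMtools 1.3.1) and derived PSI with leafcutter. The deposited PSI values are fractions, each intron's share of its cluster, per library. They carry no read counts, so no interval for a single PSI was computed. A second deposited table holds the authors' own comparisons (per-cluster significance and PSI differences) and was not used.

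Introns were matched to GENCODE release 44 (the study names release 28). Both ends had to lie on annotated exon boundaries of a member. Exon numbers follow the Ensembl canonical transcript, and the coordinates given for an intron run from the last base of one exon to the first base of the next. Sequences were read from the hg38 assembly on the strand of the gene. PSI was transformed to log2((PSI + 0.01)/(1 - PSI + 0.01)). Introns with a mean PSI of 0.01 to 0.99 were fitted in 1 model of all 6 groups with limma 3.58.1 (R 4.3.3, lmFit and eBayes, 1.17 prior degrees of freedom), with Benjamini-Hochberg adjustment over all 152722 introns per comparison and a threshold of 0.05. Tables and plots were made in Python 3.11.15 with pandas 2.3.3 and matplotlib 3.10.9. The fit was also run on simulated data, with no outcome given here. P-values set a difference between groups against the spread between these libraries.

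Named introns were the called ones (1 per gene), those of the 12 genes closest to 50%, the 5 genes of smallest p for knockdown, MYCN and interaction, and RPS24, RPL3, RPL10A, RPL12 and RPS3. Others are examples chosen after their values were seen. Some genes that these rules name are not reported here. Members and gene lists (subunits, P stalk, MDM2 binding, Diamond-Blackfan anaemia, small nucleolar RNA hosts, assembly factors, paralogs, neuroblastoma markers) were chosen with earlier results of these data known. Alternatives covered the offset, the filter, the scale, the prior, repeated values, membership, the replicate block, the groups fitted and each library left out.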

Additional observations from a re-analysis of the deposited data

How the results depend on the processing

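The 6 member introns called for the MYCN main effect numbered 6 to 7 when any 1 library was left out, and 4 to 7 under the other alternatives run. The calls of RPLP2 and RPL17 were lost with PSI itself, and that of RPS15A with shares within the gene. For MYCN alone, where 0 were called, 1 was called with an offset of 0.05, with mean PSI from 0.05 to 0.95, with the trend and robust options, with introns of 18 different values and with the replicate block, 3 with PSI itself, and 0 to 1 without 1 library. For MYCN with siRNA #1 and with siRNA #2 against wildtype, where 3 were called each, 0 were called when the fit held only the 2 groups compared, and 0 to 3 without 1 library. That fit leaves 6 libraries to estimate the spread. Within the siRNA #1 groups, with 1 call, there were 0 with an offset of 0.001 or only the 2 groups, 3 with PSI itself, 2 with the replicate block and 0 to 1 without 1 library. Within the siRNA #2 groups, with 1 call, there were 3 with an offset of 0.05 or PSI itself, 2 with 18 different values or the replicate block, 0 with only the 2 groups and 0 to 2 without 1 library. The cause of these shifts was not tested. Knockdown and interaction comparisons called 0 members under all alternatives run. The RPS24 estimate for siRNA #2 with MYCN repressed ran from -0.0641 to 0.169 log2 odds and that for the interaction from -0.0125 to 0.172 without 1 library, neither called.

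Over all tested introns, deviations from the group means correlated at 0.00615 on average over 45 same-numbered pairs (range -0.0509 to 0.0638), with 0 pairs over 0.1. A correlation over all introns cannot exclude pairing at single introns. RPS24 skipping was lowest in replicate 2 and highest in replicate 3 in each MYCN+ group, and highest in replicate 1 in each MYCN- group. The replicate block called 7 member introns for MYCN and 0 for knockdown.

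Precision is limited by 3 libraries per group and by shares without read counts. Introns that ranged over more than 20 points between libraries (16 in 9 genes) say little, and clusters shared with a neighbouring gene (5) mix splicing with the level of that gene.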

Other observations

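At some splice sites of ribosomal protein genes the shares differed between libraries within groups rather than between groups. The number of reads behind these shares is unknown, and the cause was not tested. At the tandem donor of RPS9 exon 1 in the 5′ UTR, whose sites lie 5 bases apart, the downstream site took 56.7 to 62.0% in 10 libraries and 0.417 to 16.03% in 8, with 0 in between. Of the 10, 5 were MYCN- and 5 MYCN+. The first intron of RPLP2 ranged from 3.42 to 17.2%, and an acceptor in the 5′ UTR of RPLP0, 60 bases upstream of the canonical one, from 3.25 to 14.6%. Wildtype replicate 3, MYCN-/SNRPD3- siRNA #1 replicate 3 and MYCN+/SNRPD3+ replicate 1 were low for both, at 4.54, 3.42 and 3.77% for RPLP2 and 5.17, 3.25 and 5.01% for RPLP0.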
